A study of Mus musculus with 4 samples.

Results

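Phase II conjugation enzymes attach a polar group to drugs, dietary compounds, steroids, bile acids and reactive metabolites, so that these can be excreted in bile or urine. UDP-glucuronosyltransferases (UGT) transfer glucuronic acid, cytosolic sulfotransferases (SULT) transfer sulfate from the donor PAPS, and glutathione transferases (GST, with the membrane-bound MGST) add glutathione to electrophiles. Liver and intestinal epithelium are known as main sites of these reactions. The enzymes were taken by gene symbol: Ugt1a, Ugt2a, Ugt2b and Ugt3a genes, Sult genes, and the cytosolic and microsomal glutathione transferases. The arrays held 61 probes that named such a gene. Of these, 52 named 1 gene, 4 named several of them, and 5 also named a gene of another kind and were set aside. The 56 remaining probes gave 55 entries (12 UGT, 21 SULT and 22 GST or MGST) that cover 62 gene symbols, out of 23467 entries and 41345 probes in all. Both probes that named several Ugt1a genes were used once, as their mean.

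The study used 4 Affymetrix microarrays, with 1 array per tissue (liver or ileum) and diet (control or PM). The animals were male C57BL/6J mice, which were bought at 4 weeks of age and kept for 7 days before the start. Both groups ate a high-fat diet for 12 weeks, with cellulose as fiber in the control group and paramylon, a beta-1,3-glucan of Euglena gracilis, in the PM group. An array held the pooled RNA of 10 mice in equal amounts. There were no replicates, the spread between mice could not be seen, and neither an error nor a p-value is given for any value. The ileum was sampled near the cecum.

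Values are log2 expression values. A difference is the log2 value of the PM group minus that of the control group, and the fold change is 2 to the power of this difference. Entries above 1.3 or below 0.77 in fold change were taken as past the threshold, as in the methods of the study. The median log2 value was 2.75 on both liver arrays and 3.98 on both ileum arrays, so levels were not compared between the tissues, nor between genes. The correlation of control and PM values over all probes was 0.995 in the liver and 0.994 in the ileum. The background level, set by 1401 probes of olfactory and vomeronasal receptors, was 2.70 in the liver and 3.68 in the ileum. Identical control and PM values were found for 71.1% of all entries in the liver and 69.6% in the ileum. Among the phase II entries this share was lower, with 20 of 55 in the liver (36.4%) and 30 of 55 in the ileum (54.5%). The sources used here do not say how exactly equal values arose on separate arrays, so a difference of 0 cannot be read as a measurement of equal expression. Values also repeated within an array: on each ileum array the 55 entries held 49 distinct values, and 11 entries shared their value with another. All 10 hepatocyte markers lay above the background level in the liver, and 5 of these 10 did so in the ileum. All 5 measured markers of distal ileum enterocytes and all 9 of the intestinal epithelium lay above it in the ileum, and 3 and 4 of them in the liver.

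In the ileum 2 of the 55 entries were below 0.77 and none was above 1.3, while in the liver no entry was past either threshold. With the probes that were set aside counted in, chosen after seeing the data, there were 3 of 60 below 0.77 in the ileum and 1 of 60 above 1.3 in the liver, since a probe of Gsta1, Gsta2 and Gm3776 was past both. The phenol sulfotransferase gene Sult1a1 was at 0.451 of its control value in the ileum of the PM group. The glutathione transferase gene Gsta4, at 0.765, was just below the threshold, and Ugt1a, at 0.774, was just above it. Among the entries further than 0.2 from 0 on the log2 scale, all 9 in the ileum were lower in the PM group, 8 of them above the background level. Over all entries of the ileum, 2.41% were lower and 2.37% higher by more than 0.2. In the liver 4 such entries were higher, 3 of them above the background level (Gstp2, Ugt3a1 and Ugt2b5), and 1 below that level was lower, against 2.3% higher and 2.18% lower over all entries. Over all entries of the ileum, 0.776% were below 0.77 and 0.541% above 1.3, against 3.64% and 0 of the phase II entries. Over all entries of the liver, 0.418% were below 0.77 and 0.58% above 1.3. With a single array in each group, these shares describe the arrays only.

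For some of the genes with these differences, the 250 bases upstream of the RefSeq transcription start (GRCm38.p6) are given where they are used below. Sult1a1 is shown for its low ileal value and Gstk1 as one of the lower GST genes of the ileum, though not past the threshold. Gstp1 and Gstp2 are shown as neighboring genes whose values differed in both tissues. Gsta4, the GST entry past the threshold in the ileum, is not shown. The sequences are thus a selection. They are written 5′ to 3′ on the strand of the gene, and capitals mark the motifs described after them.
Sult1a1 (chr7:126676419-126676668, minus strand): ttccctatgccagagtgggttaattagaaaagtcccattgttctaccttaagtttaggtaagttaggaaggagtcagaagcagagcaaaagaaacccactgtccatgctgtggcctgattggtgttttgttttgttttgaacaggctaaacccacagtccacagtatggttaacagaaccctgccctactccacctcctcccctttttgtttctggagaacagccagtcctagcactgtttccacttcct
Gstk1 (chr6:42245685-42245934, plus strand): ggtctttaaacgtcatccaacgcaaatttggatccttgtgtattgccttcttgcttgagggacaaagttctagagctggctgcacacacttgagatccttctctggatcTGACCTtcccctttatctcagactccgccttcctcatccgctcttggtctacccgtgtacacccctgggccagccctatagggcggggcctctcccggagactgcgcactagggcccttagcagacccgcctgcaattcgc
Gstp1 (chr19:4037913-4038162, minus strand): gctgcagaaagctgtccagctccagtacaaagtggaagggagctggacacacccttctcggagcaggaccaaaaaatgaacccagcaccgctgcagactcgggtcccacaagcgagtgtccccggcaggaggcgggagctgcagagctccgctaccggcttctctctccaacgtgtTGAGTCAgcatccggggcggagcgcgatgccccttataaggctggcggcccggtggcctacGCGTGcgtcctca
Gstp2 (chr19:4042222-4042471, minus strand): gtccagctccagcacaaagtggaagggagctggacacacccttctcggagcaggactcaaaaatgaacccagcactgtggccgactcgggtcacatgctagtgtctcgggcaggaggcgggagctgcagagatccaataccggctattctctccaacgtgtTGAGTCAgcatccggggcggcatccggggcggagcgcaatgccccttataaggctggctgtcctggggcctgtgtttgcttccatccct

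Motifs were searched on both strands of these windows and of the windows of all genes. In Gstp1 and Gstp2 the capitals TGAGTCA mark an AP-1 site, whose letters were added to the search after the sequences had been seen. It lay at positions -74 to -68 from the start in Gstp1 and at -89 to -83 in Gstp2, and 4.46% of all 32851 windows held it. The capitals GCGTG in Gstp1, at -13 to -9, match the core of the xenobiotic response element, which 28.2% of all windows held. The capitals TGACCT in Gstk1, at -141 to -136, are the reverse strand of AGGTCA, a nuclear receptor element found in 4607 of all windows. In Sult1a1 none of the 6 motifs was found. The others searched were the antioxidant response element core TGACNNNGC (10.2% of all windows), the TATA box TATAAA (12.4%) and the HNF1 palindrome (3 windows of all). Of the 62 symbols 54 had a window, 65 windows in total. The antioxidant response element core was in 3 of these 65 (Gsta3, Gstm7 and Mgst1), the xenobiotic response element core in 9, AGGTCA in 11, TATAAA in 13, TGAGTCA in 7 and the HNF1 palindrome in none. No 2 of these motifs overlapped in the sequences shown. The upstream windows of Gstp1 and Gstp2 were identical at 78.1% of aligned positions, where those of the unrelated pair Sult1a1 and Gstk1 were identical at 47.0%. These matches describe letters in short windows and say nothing of the binding of a factor.

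Of the sulfotransferases in the ileum, Sult1a1, which sulfates phenols and many drugs, was at 6.84 on the control array and at 5.69 on the PM array. Both values were above the background level. The difference was -1.15 and the fold change 0.451, and 23 of all 23467 entries had a lower difference (0.0980%). The other members of the SULT1 family above the background level in the ileum were close to their control values. Sult1b1, which acts on phenols and thyroid hormones, went from 7.75 to 7.74. Sult1d1, an enzyme for catecholamines in the mouse, went from 8.82 to 8.79. Sult1c2 went from 4.60 to 4.51. No difference near that of Sult1a1 was seen in these relatives. Sult2b1, which sulfates cholesterol, was at 8.58 on both arrays. Sult4a1, a member known mainly from brain, was at 4.01 in the control group and 3.76 in the PM group (-0.25), near the background level of 3.68. The other 15 sulfotransferases were not above the background level on either array of the ileum.

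In the liver the difference of Sult1a1 was small, with 9.91 in the control group and 9.83 in the PM group (-0.08). The 5 other sulfotransferases above the background level were slightly higher in the PM group. Among all liver entries above that level, 19.3% were higher, 13.2% lower and 67.6% identical. Sult2a8, a sulfotransferase of bile acids in mouse liver, went from 10.66 to 10.76 and Sult1d1 from 8.95 to 9.02. Sult5a1 went from 4.05 to 4.15, Sult1b1 from 5.59 to 5.65 and Sult1c2 from 5.49 to 5.52. All 5 lay far inside the thresholds. The remaining 15, including Sult1e1 for estrogens, Sult2a1 to Sult2a7 and Sult3a1, were not above the background level of the liver. Sult2a1 and Sult3a1 are known to be higher in female than in male mouse liver, and the mice were male. The difference of -0.28 of Sult2a1 and that of 0.23 of Sult2a3 lay wholly below the background level, so no fold change is given for them.

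**Figure D1:**
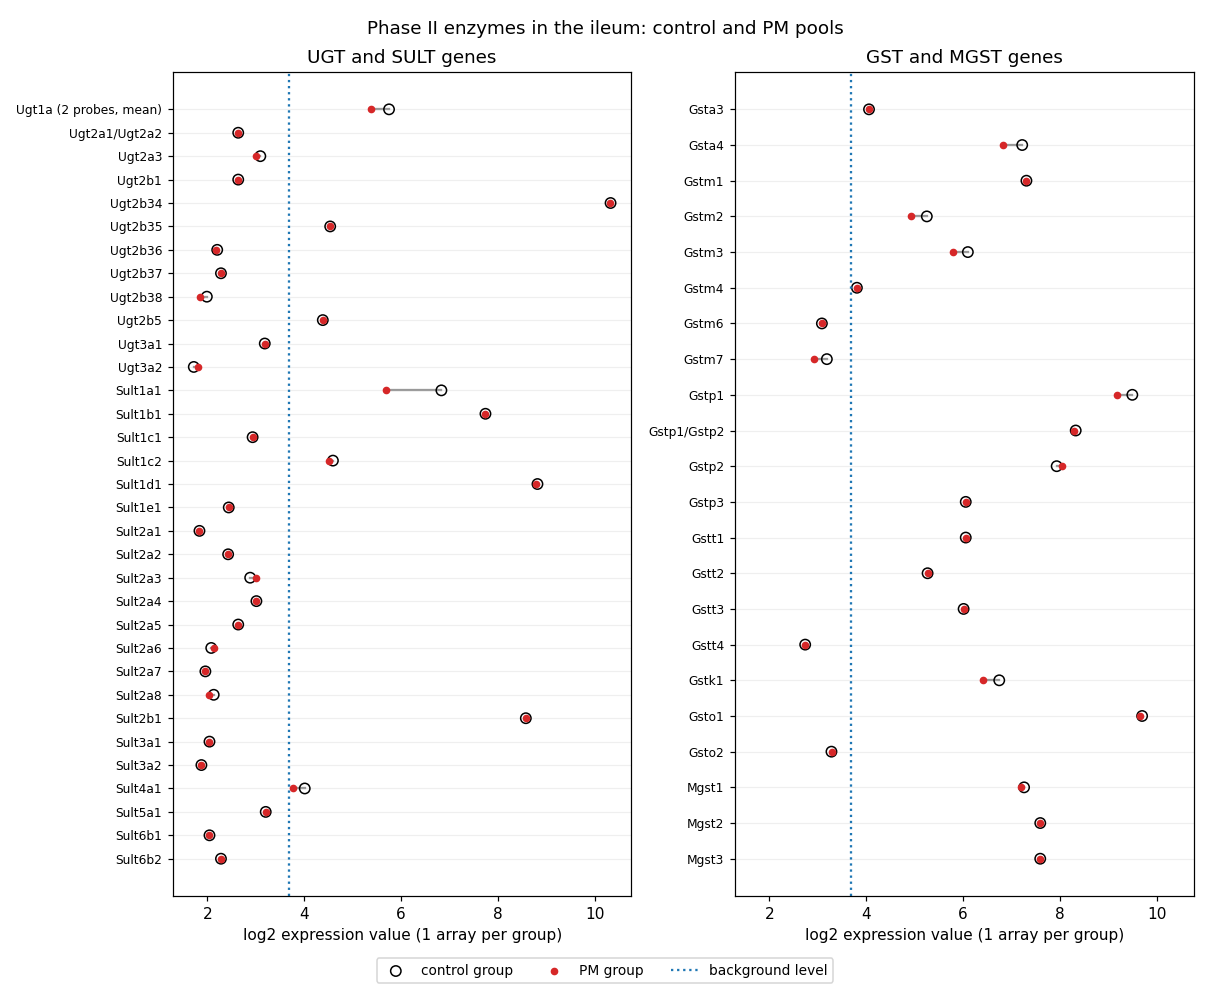
Log2 expression values of the 55 phase II entries in the ileum, with the control group as open circles, the PM group as red points (1 array of 10 pooled mice each) and the background level of 3.68 as a dotted line. Sult1a1 has the longest line, from 6.84 to 5.69, and Gsta4, Ugt1a, Gstm2, Gstm3, Gstp1 and Gstk1 also have lower PM values, while 30 entries have identical values.

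Of the glutathione transferases in the ileum, 6 of 22 were lower by more than 0.2 on the log2 scale and none was higher by that much, where 565 of all 23467 entries were lower and 557 higher by that much. Gsta4, an alpha class enzyme that conjugates the lipid peroxidation product hydroxynonenal, went from 7.22 to 6.83 (-0.39). Its fold change was 0.765, and 170 of all entries had a lower difference. Gstk1, the kappa class enzyme of mitochondria and peroxisomes, went from 6.75 to 6.41 (fold change 0.793). The mu class genes Gstm2 (5.25 to 4.92, fold change 0.792) and Gstm3 (6.10 to 5.79, fold change 0.808) were lower by a similar amount. Gstp1, a pi class enzyme for electrophiles, went from 9.50 to 9.19 (fold change 0.807). The last of the 6, Gstm7 (-0.26), was not above the background level in the ileum. Of the 18 GST and MGST entries above the background level, 9 had other than identical values, and 8 of these 9 were lower in the PM group. Among all entries above that level, 15.1% were lower, 16.6% higher and 68.2% identical.

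The mu class genes stand next to each other on the chromosome, in the order Gstm5, Gstm7, Gstm6, Gstm3, Gstm2, Gstm1 and Gstm4. Gstm3 and Gstm2 are direct neighbors, and both were lower in the ileum. Gstm1, next to Gstm2, was at 7.31 on both arrays, and Gstm4 at 3.81 on both. Gstm5 shares its probe with the noncoding RNA gene 4933431E20Rik, and that probe went from 5.74 to 5.53. In the liver the same direct neighbors were slightly lower, Gstm3 from 7.18 to 7.06 and Gstm2 from 6.35 to 6.28, while Gstm1 went from 7.51 to 7.56. Gstm4, Gstm6 and Gstm7 had identical values there.

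The pi class genes are close copies, so their probes may share signal. In the ileum Gstp1 was lower (-0.31), the probe that names both Gstp1 and Gstp2 was at -0.03, and Gstp2, from 7.93 to 8.04, was higher by 0.11. In the liver the order was the same: Gstp1 had a difference of 0.03, the shared probe of 0.15 and Gstp2 of 0.35. Gstp2 was at 9.07 in the control liver and 9.41 in the PM liver. Its fold change of 1.27 did not reach 1.3, and 163 entries of the liver had a higher difference (0.695%). Gstp3 was at 6.06 on both ileum arrays and went from 6.89 to 6.88 in the liver. The difference of Gstp2 thus exceeded that of Gstp1 in each tissue, with no spread known for either.

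The theta class had 3 genes above the background level, and none was past a threshold in either tissue. In the ileum these 3 had identical values on both arrays, as 69.6% of all entries did. In the liver the PM values of all 3 were below the control values by 0.02 to 0.16 on the log2 scale, and the difference between the tissues was not tested. Gstt3 went from 7.06 to 6.90 (fold change 0.895), Gstt1, which dehalogenates small halogenated compounds, from 9.59 to 9.49 and Gstt2 from 6.71 to 6.69, while Gstt4 was not above the background level. Gsto1, an omega class enzyme that reduces dehydroascorbate, went from 8.33 to 8.18 in the liver and from 9.70 to 9.65 in the ileum. Gsta3, which conjugates the aflatoxin epoxide in mice, went from 9.92 to 9.96 in the liver and was at 4.06 on both ileum arrays. No microsomal enzyme was past a threshold in either tissue, and the identical values among them do not measure equal expression. Mgst1 was at 9.30 and Mgst3 at 5.02 on both liver arrays, and in the ileum Mgst1 went from 7.26 to 7.20. Mgst2, which can make leukotriene C, and Mgst3 were each at 7.59 on both ileum arrays. In the liver Mgst2 was not above the background level.

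**Figure D2:**
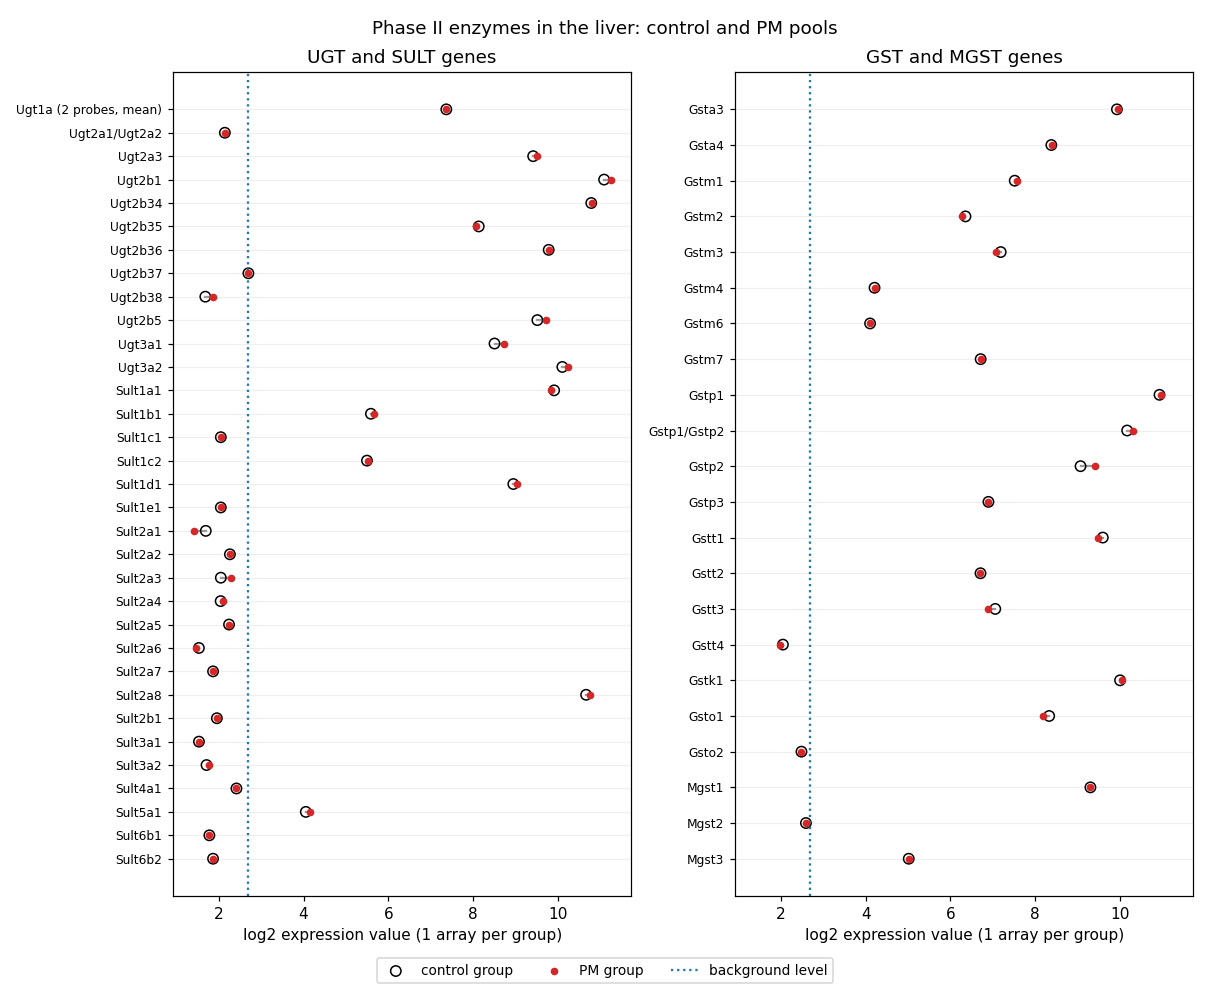
Log2 expression values of the 55 phase II entries in the liver, drawn as for the ileum, with the background level of 2.70 as a dotted line. Open circles and red points nearly coincide, and the largest difference above the background level is that of Gstp2, from 9.07 to 9.41.

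No glucuronosyltransferase was past a threshold in the liver. Of 9 UGT entries above the background level there, 7 had a higher value in the PM group, 1 had a lower value and 1 was identical, with a median difference of 0.09. Ugt3a1 was at 8.50 and 8.74 (fold change 1.18), and its neighbor Ugt3a2 from 10.10 to 10.23. In humans the enzymes of the UGT3A family are known to use sugars other than glucuronic acid. Of the UGT2B family, which glucuronidates steroids and bile acids, Ugt2b5 went from 9.51 to 9.72 (fold change 1.15) and Ugt2b1 from 11.09 to 11.24 (1.11). Ugt2a3 went from 9.41 to 9.51, Ugt2b34 from 10.78 to 10.81 and Ugt2b36 from 9.78 to 9.80. The lower one was Ugt2b35, from 8.13 to 8.07. With quantile normalization within the tissue, the difference of Ugt1a was -0.02 in place of 0, and that of Ugt2b1 0.12 in place of 0.15. Ugt2b34 (0.02) and Ugt2b36 (0.02) were not followed there, so their directions may depend on the normalization. Over all entries above the background level in the liver, 19.3% were higher and 13.2% lower, and the others were identical. Over the 34 phase II entries above that level, 55.9% were higher and 26.5% lower. In counts these were 19 and 9 entries, against 2651 and 1811 of all 13769 such entries. Identical values made up 17.6% of the 34 and 67.6% of all such entries, so both directions had larger shares among the 34. The median difference of the 34 was 0.02 against 0 over all such entries. The latter says little of direction, since most of those entries were identical.

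The Ugt1a genes share their last exons and differ in the first, and the locus includes the enzyme for bilirubin. Both probes named several of these genes at once, so no single isoform could be told apart. In the ileum the probe that names 5 Ugt1a genes went from 6.99 to 6.41, a fold change of 0.669, and the probe that names 8 went from 4.52 to 4.36, a fold change of 0.895. The mean of both was 5.75 in the control group and 5.38 in the PM group, which gives a fold change of 0.774. The first probe alone would be past 0.77, and the number of entries below 0.77 would then be 3 of 55. In the liver each of the probes had identical values on both arrays, 8.98 and 5.75. The other UGT entries above the background level in the ileum were Ugt2b34 (10.33 and 10.32), Ugt2b5 (4.39 on both arrays) and Ugt2b35 (4.54 on both arrays). The remaining 8, among them Ugt2b1, Ugt2b36, Ugt3a1 and Ugt3a2, were not above it.

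Of the UGT entries 75.0% were above the background level in the liver, of the SULT entries 28.6% and of the GST and MGST entries 86.4%. In the ileum the shares were 33.3%, 28.6% and 81.8%. For all families together, this level was passed on both arrays of a tissue by 34 of 55 entries in the liver (61.8%, against 58.7% of all entries) and 28 of 55 in the ileum (50.9%, against 62.5%). In both tissues 25 entries were above it, in the liver only 9, in the ileum only 3 and in neither 18. The 9 of the liver were Ugt2a3, Ugt2b1, Ugt2b36, Ugt3a1, Ugt3a2, Sult2a8, Sult5a1, Gstm6 and Gstm7. The 3 of the ileum were Sult2b1, Mgst2 and Sult4a1. Of the 18 in neither, 13 were sulfotransferases.

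**Figure D3:**
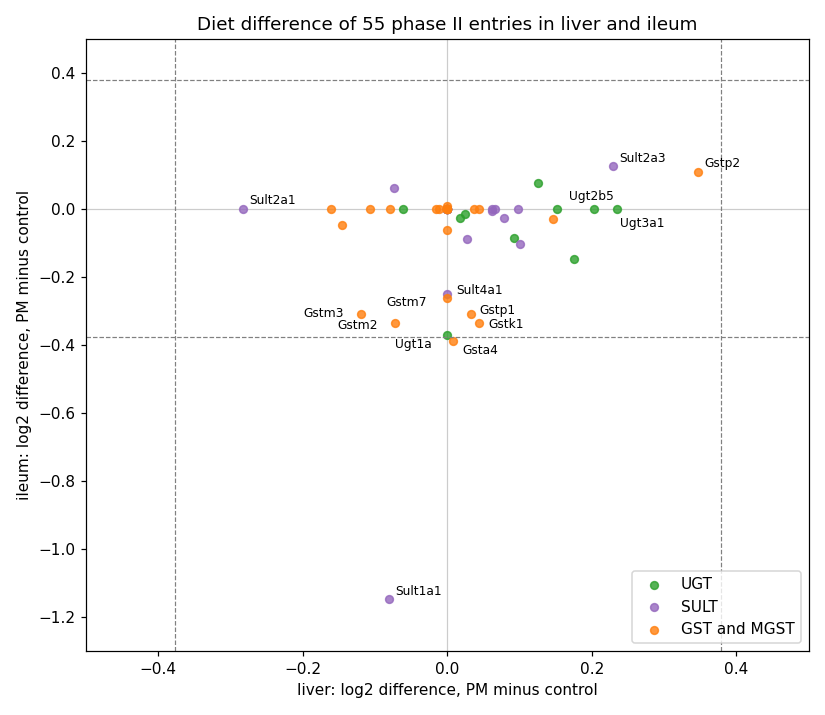
Log2 difference, PM minus control, of the 55 phase II entries in the liver (x axis) and the ileum (y axis), colored by family, with the thresholds of 1.3 and 0.77 as dashed lines. Sult1a1 (-0.08 and -1.15) and Gsta4 (0.01 and -0.39) are the entries past a dashed line, and the entries further than 0.2 from 0 in the ileum are all lower.

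Of the 25 entries above the background level in both tissues, 8 were higher in the liver and lower in the ileum. None was the reverse. The share of all entries with these directions was not calculated, so the count cannot be read as particular to these enzymes. Above the background level, 19.3% of all liver entries were higher and 13.2% lower, and 16.6% of all ileum entries were higher and 15.1% lower. Some of the 8 were close to 0 in a tissue, such as Gsta4 in the liver (0.008) and Sult1b1 in the ileum (-0.007). With quantile normalization within the tissue, Gsta4 in the liver was at -0.028, which changes its direction. The shared probe of Gstp1 and Gstp2 is among the 8 beside Gstp1. Gstp2 was higher in both, 4 were lower in both (Sult1a1, Gstm2, Gstm3 and Gsto1), and 2 were identical in both. The other 10 were identical in 1 tissue. None of the 55 was past a threshold in both. Neither correlation nor test was calculated for these directions.

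The probes set aside included those of Gsta1 and Gsta2, alpha class genes known to be inducible by xenobiotics, which share each of their probes with the genes Gm3776 or Gm10639 or both. The probe that names Gsta1, Gsta2 and Gm3776 went from 6.75 to 6.30 in the ileum (fold change 0.737) and from 5.09 to 5.52 in the liver (fold change 1.34), past the threshold in opposite directions. The probe that names all 4 genes went from 7.91 to 7.77 in the ileum and was at 7.61 on both liver arrays. The third, which names Gsta1, Gsta2 and Gm10639, was not above the background level in either tissue. Gstz1, which isomerizes maleylacetoacetate in tyrosine breakdown, shares its probe with Pomt2, and that probe went from 6.82 to 6.78 in the ileum and was at 10.94 on each liver array, with a difference of under 0.01.

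Genes that supply or follow the conjugation reactions were taken from lists made by role. Of 12 efflux and uptake transporters of conjugates in the ileum, 1 was below 0.77 and none above 1.3. This was Abcc2, the apical exporter of glucuronide and glutathione conjugates, which went from 8.73 to 8.23 (-0.50). Abcb1a, the drug exporter P-glycoprotein, went from 10.88 to 10.65, while Abcg2, an apical exporter of sulfate conjugates, went from 8.98 to 9.22 and Abcc3, the basolateral exporter, from 7.95 to 8.18. None of 10 measured genes of PAPS and sulfate supply, transport and removal was past a threshold in either tissue. The same held for 4 of glucuronic acid supply and removal, 7 of glutathione supply, 12 of glutathione breakdown and 12 of other conjugations. Ugp2, Ugdh, Slc35d1 and Gusb, the 4 of glucuronic acid supply and removal, had identical values on both liver arrays. The largest difference among the sulfate genes was that of Slc35b3, a PAPS carrier of the Golgi, in the liver (4.86 to 5.16). Of the 7 genes of glutathione supply, 4 were lower and 2 higher in the ileum, and 0 were lower and 3 higher in the liver. In the ileum Gclc went from 7.74 to 7.69 and Gclm from 8.07 to 8.03, while Gsr went from 9.93 to 10.05.

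Of 15 transcription factors and sensors that act on these enzymes, none was past a threshold in either tissue. Identical values were found for 8 of the 15 in the liver and 10 in the ileum, which cannot be read as equal expression. Nfe2l2 (Nrf2), the activator of the antioxidant response, was at 7.72 on both liver arrays and went from 8.90 to 8.89 in the ileum. The xenobiotic receptor gene Nr1i2 (PXR) went from 8.28 to 8.19 in the ileum, Nr1i3 (CAR) was at 9.78 on both liver arrays, and Ahr went from 8.05 to 8.18 in the liver. Of 11 other target genes of Nrf2 none was past a threshold in either tissue, with Nqo1 at -0.33 in the liver and -0.12 in the ileum. Of 11 other target genes of CAR and PXR, Cyp2b9 (-1.13) and Cyp2b13 (-0.54) were below 0.77 in the liver and Cyp2c55 (-0.80) in the ileum. Cyp2b13 was above the background level on the control array only. Cyp2b9 and Cyp2b13 are also 2 of 12 female-biased liver genes, of which no other was past a threshold in the liver, and of 12 male-biased genes Cyp4a12a (0.47) was above 1.3.

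Markers of other cell types and gut regions differed in both directions in the same comparison of the ileum. Of 16 markers of proximal enterocytes, 6 were below 0.77 and none above 1.3, and their summed linear level was 17565 in the control group and 15611 in the PM group. These 6 were Lct, Fabp1, Apoa4, Rbp2, Creb3l3 and Adh1, and each stayed above the background level on both arrays. For cecum and colon, 3 of 10 markers were below 0.77, with Car1, Aqp8 and Insl5 above the background level in the control group only. The summed level of the 10 (5831 and 5353) was mostly that of Muc2 (12.08 and 12.00), which is also a goblet cell marker. Of 19 markers of pancreatic acinar cells, 10 were below 0.77 and none above 1.3. Ctrb1 went from 7.40 to 4.35, Sycn from 6.74 to 3.52 and Cpb1 from 5.57 to 2.01. The summed level (5463 and 4332) was mostly that of Zg16 (11.23 and 11.20), which is also a goblet cell marker, and of Klk1 (10.66 and 10.01), so it shows little of these larger differences. Of the 10, Cel, Cpb1 and Sycn were above the background level in the control group only. None of the 5 markers of distal ileum enterocytes (summed level 7730 and 7375) or of the 9 of the intestinal epithelium (15338.5 and 15181.5) was past a threshold. Of 12 macrophage markers, Lyz2 was above 1.3 in the ileum (8.22 and 8.91), while 5 of the 12 were higher, 2 lower and 5 identical. Their summed level was 1157 and 1448, a difference that was mostly that of Lyz2. None of 8 T cell or 7 B cell markers was past a threshold, with 4 higher and 0 lower in each list. All 8 goblet cell markers had lower PM values, none past a threshold (summed level 18699 and 17504). The part of these markers in the lower values of Sult1a1, Gsta4, Ugt1a and the other GST genes was not tested. In pooled RNA, fewer cells of a type and less RNA per cell cannot be told apart. In the liver all 10 hepatocyte markers lay between the thresholds, with a summed level of 40338 in the control group and 40558 in the PM group. Of the macrophage markers, Marco was above 1.3 in the liver (5.81 and 6.40), and the summed level was 1018 and 1127.

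**Figure D4:**
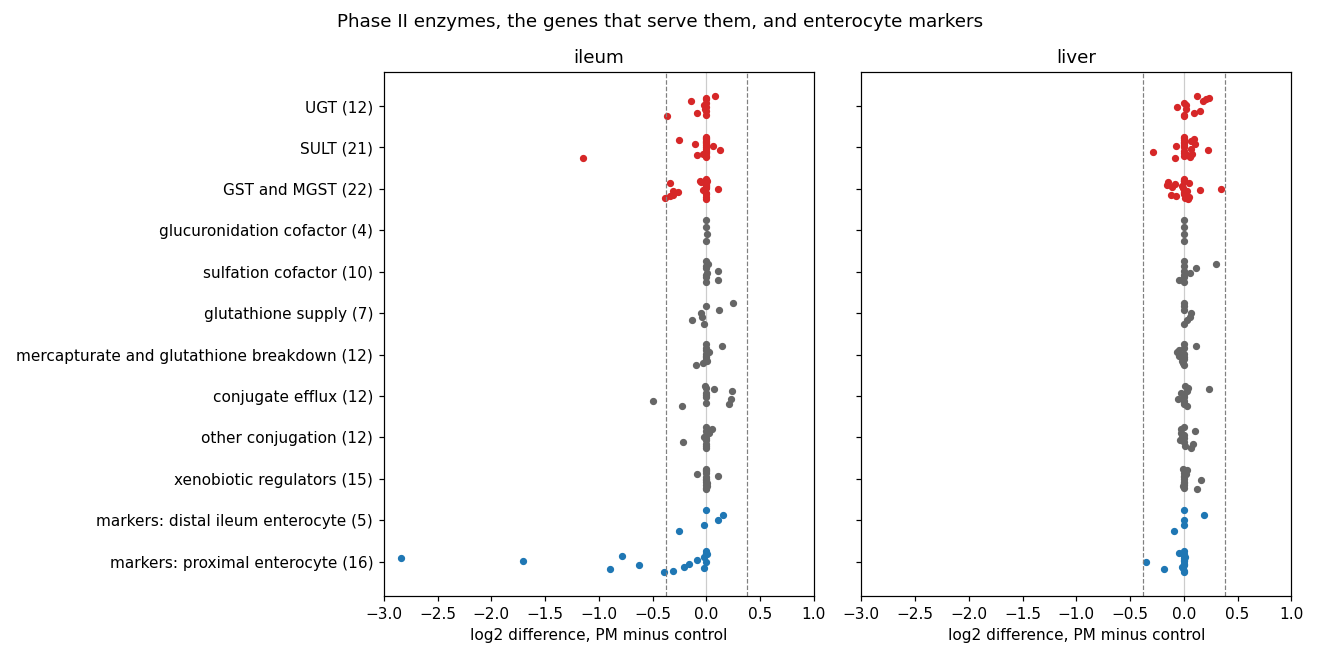
Log2 difference, PM minus control, of the phase II enzymes (red), of the genes that serve or control them (gray) and of enterocyte markers (blue) in the ileum and the liver, 1 point per gene, with the number of genes in brackets and the thresholds of 1.3 and 0.77 as dashed lines. In the ileum Sult1a1, Gsta4 and Abcc2 are the red and gray points below 0.77, beside 6 of 16 markers of proximal enterocytes.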

How the data were processed

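The authors combined liver or ileum RNA of the 10 mice of a group and ran 1 array on each pool. The authors deposited log2 expression values made by robust multichip analysis in Affymetrix Expression Console 1.3 (submitters' processing notes and the study's methods). The sources used here do not say which arrays shared a normalization, so comparisons were made within a tissue.

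From the deposited log2 values, differences and fold changes were calculated with Python 3.11.15, numpy 2.4.6, pandas 2.3.3 and statsmodels 0.14.6. Probes were named through the platform annotation. An entry is a distinct set of gene symbols, valued by the mean of its probes. The background level is the 95th percentile of olfactory and vomeronasal receptor probes on the higher array of a tissue. Promoter windows are from RefSeq (GRCm38.p6). The code was checked on the control values, with a fixed shift added to randomly drawn entries. No noise was added, so recovery was certain and says nothing of the precision of single arrays. Named genes are entries past a threshold and most of the 15 largest absolute differences per tissue, with their paralogs. Of the lists, not every gene past a threshold or with the largest difference is named. Some list genes with smaller differences are named for their role. Members, lists and rules were chosen with earlier results of these data known. Precision is limited by having 1 array per group. The alternatives were other thresholds, filters, probe choices and normalizations. RT-PCR and serum data were not analysed here.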

Additional observations from a re-analysis of the deposited data

Results flagged for a closer look

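The probe that names Gsta1, Gsta2 and Gm3776 differed between the tissues. Its log2 difference, PM minus control, was 0.43 in the liver and -0.44 in the ileum, so that it was past the threshold in opposite directions. The difference between the tissues was not tested, since each group had 1 array. The other probe of these genes that was above the background level, which also names Gm10639, was at 0 in the liver and -0.14 in the ileum.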

How the results depend on the processing

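In the ileum the number of entries below 0.77, 2 of 55, was 1 with a threshold of 1.5-fold and 1 with a threshold of 2-fold by the construction of these thresholds. Sult1a1, at 0.451, was the entry past both. It was 3 with the brightest probe of a gene, because Ugt1a then had a log2 difference of -0.58, and 3 of 56 when each probe was counted alone, an alternative also added after seeing the data. With the probes that name a member and another gene included, which was chosen after seeing the data, it was 3 of 60 in the ileum, and the number above 1.3 in the liver was 1 of 60 in place of 0. A filter at the median level, values raised to the background level, probes with 1 symbol, centring, quantile normalization and removal of the trend with level left these counts as they were, and no median difference moved by 0.1. For 26 entries named in the text, the set-aside Gsta1, Gsta2 and Gm3776 probe included, 6 of the alternatives (raised values, 1 symbol, brightest probe and the 3 normalizations) were run on each difference. Of these values 305 stayed on their side of the threshold and 1 did not (Ugt1a). Much of this was fixed in advance, so the count says little of how firm the differences are. Centring left each value as it was, and probes with 1 symbol could only drop entries. Raised values could not change entries above the background level. The choice of the brightest probe could change Ugt1a only, the 1 entry with more than 1 probe. No paired analysis was possible because each group had 1 array. Depth does not apply to arrays, and values below the background level have no order.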
